A study of Mus musculus with 27 samples.

Results

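Vitamin A reaches a tissue as retinol and is turned there into retinoic acid, and 9 mouse genes of this route were followed through radiation injury of the rectum. They were chosen by symbol from the 19690 genes of the deposited tables, and all 9 were found with 1 row each. The set holds the retinol receptor Stra6, the retinol and alcohol dehydrogenases Adh1, Adh7, Rdh10 and Dhrs9, the retinal dehydrogenases Aldh1a1, Aldh1a2 and Aldh1a3, and the retinoic acid carrier Crabp2.

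The rectum was taken from 27 young adult female mice, labelled C57BL/6 and given as C57BL/6J in the study's methods, in 9 groups of 3. The 5 irradiated groups had received a single X-ray dose of 25 Gy over the lower pelvis, with lead over the rest of the body, and differed in the time of sampling: early (4 h or 1 day), at 3 days, or late (2 or 8 weeks). The 4 sham groups had been anaesthetised only and covered the same times other than 1 day, for which the shams of 4 h served as controls too. Poly(A) RNA from rectal tissue was sequenced, so each value adds up all cell types of the piece, and fewer cells of a type and less RNA per cell cannot be told apart.

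Retinol enters cells through the membrane receptor Stra6 or by diffusion, and it is oxidised reversibly to retinal by alcohol dehydrogenases and by membrane-bound short-chain dehydrogenases, of which Rdh10 is the main one in the mouse embryo. The retinal dehydrogenases then make retinoic acid in a step that cannot be reversed, Crabp2 carries it to the nuclear receptors (RARs, which pair with RXRs), and Cyp26 enzymes break it down. In the gut, retinoic acid made by epithelium, stroma and dendritic cells shapes lymphocyte homing and epithelial differentiation, and in stratified squamous epithelia it holds back keratinisation.

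In the mm9 assembly Adh7 (chr3:137880787-137896346, plus strand) lay beside Adh1 (chr3:137923955-137953662, plus strand), and Crabp2 lay elsewhere on that chromosome (chr3:87752588-87757298, plus strand). Stra6 (chr9:57911595-58001803) and Aldh1a2 (chr9:71063596-71144050) were both on the plus strand of chromosome 9. Aldh1a1 was at chr19:20676451-20717952 (plus strand), Aldh1a3 at chr7:73535778-73572403 (minus strand), Dhrs9 at chr2:69218502-69242590 (plus strand) and Rdh10 at chr1:16095855-16123815 (plus strand). All 9 are annotated there as protein-coding. Aldh1a1 has a close copy on the same chromosome, Aldh1a7 (chr19:20767443-20802052, minus strand). Of the 50-base stretches of the Aldh1a1 transcript, 7.53% also occurred in the Aldh1a7 transcript, so some reads of the pair could have been given to either gene. No 50-base stretch was shared between Adh1 and Adh7 or among Aldh1a1, Aldh1a2 and Aldh1a3.

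The RefSeq promoter table (GRCm38.p6, 250 bases before to 50 bases after a start) matched 6 of the 9 genes, namely Adh1, Adh7, Aldh1a1, Aldh1a2, Dhrs9 and Stra6. The promoters of Dhrs9 and Aldh1a2, the members with the largest log2 fold changes at 2 weeks among those counted in every sham library, are printed here 5′ to 3′, Dhrs9 from chr2:69380212-69380511 and Aldh1a2 from chr9:71215539-71215838, both on the plus strand. Capitals mark the letters AGGTCA, the half-site that retinoid receptors and other nuclear receptors bind, here on the opposite strand.
Dhrs9 promoter: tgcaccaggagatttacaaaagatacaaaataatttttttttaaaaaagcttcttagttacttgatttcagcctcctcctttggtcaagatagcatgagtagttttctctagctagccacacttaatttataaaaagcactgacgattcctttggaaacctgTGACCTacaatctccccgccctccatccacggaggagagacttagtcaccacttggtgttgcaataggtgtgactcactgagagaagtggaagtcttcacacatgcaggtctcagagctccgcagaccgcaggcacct
Aldh1a2 promoter: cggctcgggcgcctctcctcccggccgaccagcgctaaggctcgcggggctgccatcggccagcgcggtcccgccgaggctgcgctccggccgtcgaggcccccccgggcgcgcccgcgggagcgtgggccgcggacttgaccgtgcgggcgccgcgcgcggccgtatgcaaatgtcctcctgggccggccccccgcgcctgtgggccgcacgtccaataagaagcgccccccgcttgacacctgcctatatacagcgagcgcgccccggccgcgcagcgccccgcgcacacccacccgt
The half-site AGGTCA was searched on both strands, and among the members it occurred only in the Dhrs9 window, upstream of the start. It occurred in 16.3% of the 32851 promoters of the table. Direct repeats of this half-site and of 3 relatives of it (the variant AGTTCA, then also the variant GGGTCA, and lastly the variant GGTTCA) with a gap of 1, 2 or 5 bases were also searched and were found in 0.222%, 0.268% and 0.0974% of all promoters, and in none of the members' windows. A match here describes letters and not a bound site.

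Levels are counts scaled to library size (CPM, with TMM factors over all 27 libraries), and differences are log2 fold changes of irradiated over sham with their standard error (SE), from edgeR's quasi-likelihood test with Benjamini-Hochberg adjustment over all genes tested. A gene is said to have risen or fallen where the adjusted p was under 0.05. Library totals were 17966356 to 23281174 counts. Colonocyte and smooth muscle markers were present in all 27 libraries.

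Adh1 fell from 3 days on, Aldh1a3 rose at every time but 1 day, Dhrs9 rose from 3 days, and Rdh10 rose at 4 h, 3 days and 2 weeks. Aldh1a1 rose at 4 h and fell at 8 weeks. Aldh1a2 and Crabp2 rose at the late times, and Adh7 and Stra6 rose at 8 weeks. At 4 h 3 of the 8 members tested rose and 0 fell, where 11.5% of all tested genes were called (5.78% higher, 5.72% lower). At 1 day 0 of 8 were called, against 4.00% of all genes (1.97% higher, 2.03% lower). At 3 days 3 of 8 rose and 1 fell, against 20.5% of all genes (10.4% higher, 10.1% lower). Crabp2 was below the filter on low counts at these times. It was tested at the late ones only because of its irradiated counts, 191 against 3 in shams at 2 weeks and 2051 against 0 at 8 weeks. Its being tested there was thus tied to its being higher, and it is part of the late counts and medians that follow.

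At 2 weeks 5 of 9 members rose, Crabp2 among them, and 1 fell, against 25.8% of all genes (16.5% higher, 9.30% lower). At 8 weeks 6 of 9 rose, again with Crabp2, and 2 fell, against 38.0% of all genes (21.5% higher, 16.5% lower). The median log2 fold change of the tested members was 0.16 at 4 h, -0.30 after 1 day and 0.48 after 3 days, then 1.37 in week 2 and 3.17 in week 8, while that of all tested genes lay between -0.0049 and 0.012. Irradiated and sham libraries did not overlap for 3 members at 4 h (33.9% of all genes), 3 at 1 day (23.8%) and 4 at 3 days (40.4%). Later they did not overlap for 8 members, both at 2 weeks (49.4% of all genes) and at 8 weeks (54.3%).

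**Figure D1:**
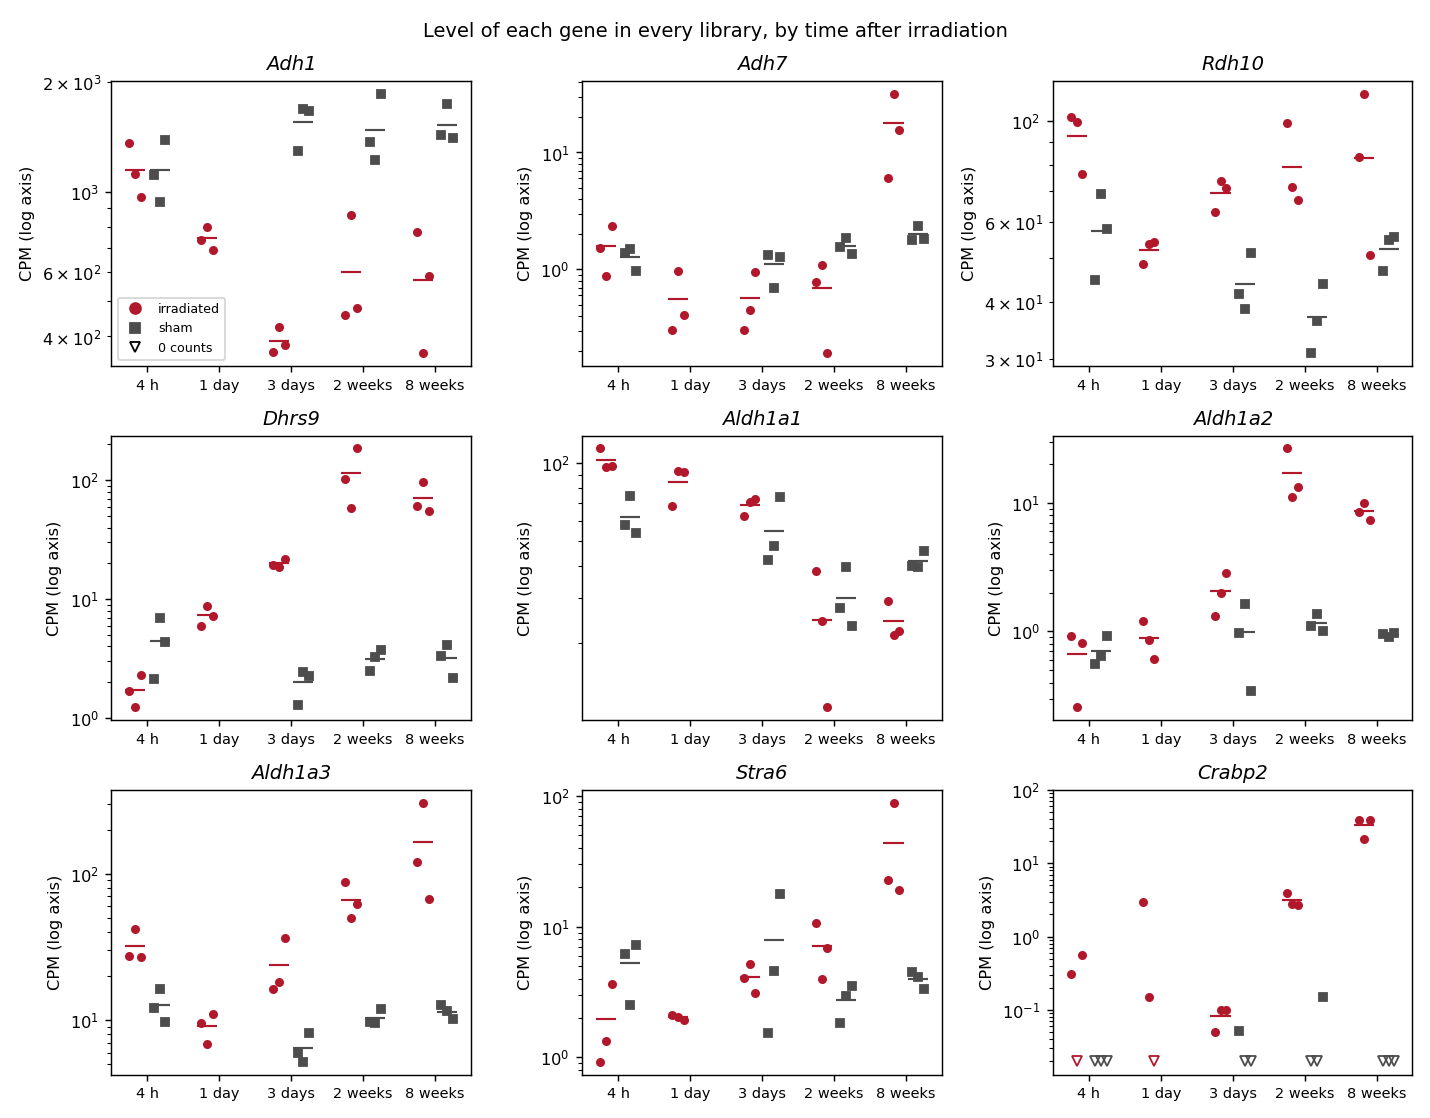
CPM (log axis) of the 9 genes in each library, with irradiated mice as red circles left of sham-irradiated mice as grey squares at each time after irradiation, horizontal lines for group means where all 3 libraries had counts, and open triangles for libraries with 0 counts. The 1 day group has no shams of its own. At 8 weeks the irradiated libraries lay above the shams for Adh7, Dhrs9, Aldh1a2, Aldh1a3, Stra6 and Crabp2, and below them for Adh1 and Aldh1a1.

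**Figure D2:**
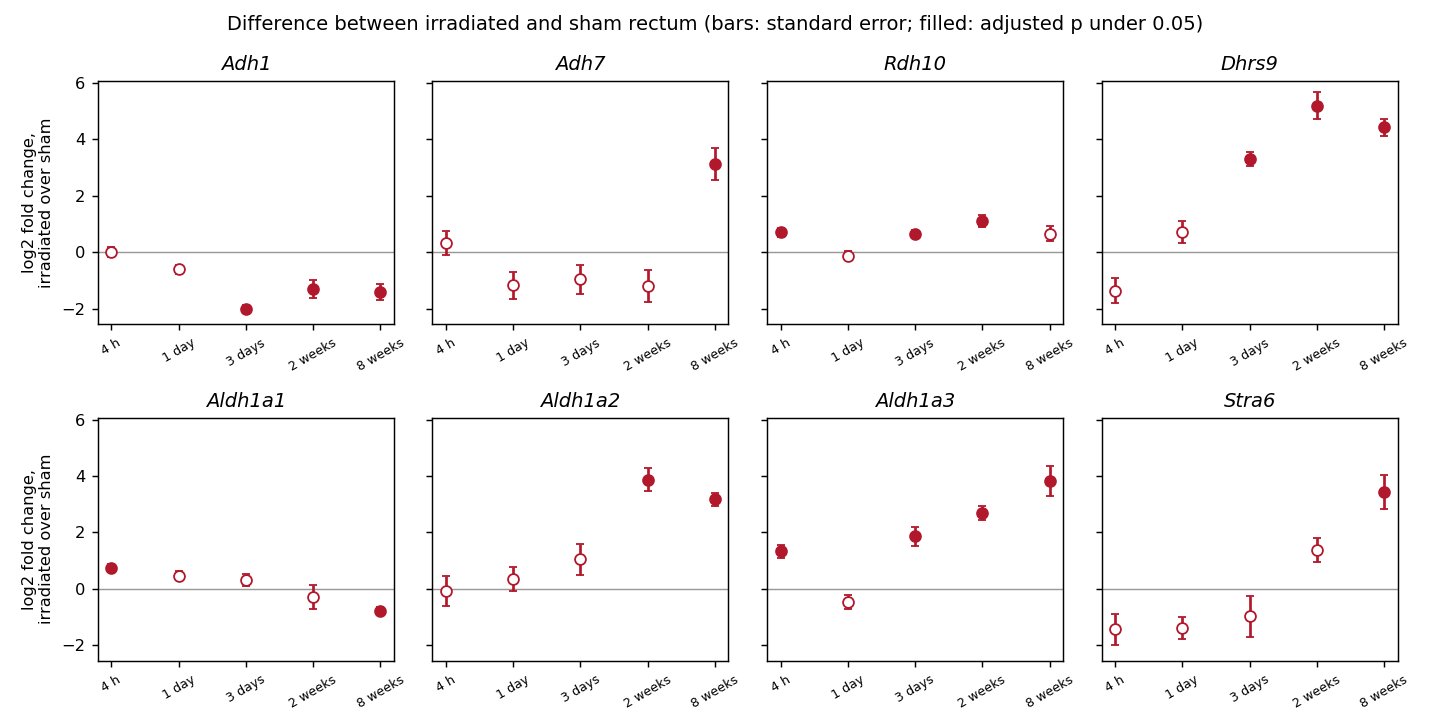
Log2 fold change of irradiated over sham rectum at 5 times after irradiation for the 8 members other than Crabp2, with bars for the standard error and filled circles for an adjusted p under 0.05. Dhrs9 reached 5.19 at 2 weeks and Adh1 was lowest, at -2.01, at 3 days.

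Among the first-step enzymes, Adh1, a cytosolic alcohol dehydrogenase of broad tissue range that also clears excess retinol, had the highest level of the 9 genes in every group, also per transcript length. Its FPKM averaged between 331 in irradiated rectum at 3 days and 1312 in shams at 3 days. At 4 h it had 1361, 1117 and 964 CPM in irradiated mice against 1110.0, 935 and 1383 CPM in shams, and the groups overlapped (log2 fold change 0.01, SE 0.17, adjusted p = 0.979). At 1 day it had 738, 800.2 and 692 CPM, below all 4 h shams, but it did not pass the test (-0.61, SE 0.15, adjusted p = 0.0725).

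At 3 days Adh1 fell to 362, 424 and 378 CPM in irradiated mice, against 1291, 1688 and 1664 CPM in shams (log2 fold change -2.01, SE 0.14, adjusted p = 0.000118). The difference between the effects at 3 days and at 4 h was itself past the threshold (-1.99, SE 0.23, adjusted p = 0.000479), as it was for 17.5% of all genes. At 2 weeks the irradiated mice had 457, 864 and 478 CPM and the shams 1364, 1219.6 and 1853 CPM (-1.30, SE 0.31, adjusted p = 0.0266), and this call was lost when any 1 of 5 of the 6 libraries was left out, the exception being irradiated replicate 2 with its 864 CPM. It was also lost with the replicate block (adjusted p = 0.0549). At 8 weeks the values were 773, 361 and 586 CPM in irradiated mice and 1427, 1745 and 1399 CPM in shams (-1.42, SE 0.28, adjusted p = 0.00575). The effects at 2 and 8 weeks did not differ past the threshold from those of the time before (adjusted p = 0.182 and 0.930).

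Markers of colonocytes, the absorptive cells of the surface, were lower in their sum at the late times, as Adh1 was, but not at 3 days. Their summed FPKM over 12 genes was 12195 to 14948 in irradiated mice and 11190 to 14555 in shams at 3 days, overlapping. At that time 1 marker rose and 4 fell (10.4% and 10.1% of all genes), with a median log2 fold change of -0.020. At 2 weeks the sum was 3682 to 7251 in irradiated mice against 8374 to 9612 in shams, with 2 of 12 markers lower (9.30% of all genes). At 8 weeks it was 3893 to 5517 against 10878 to 11655, with 11 of 12 markers lower (16.5% of all genes). Their part in the fall of Adh1 was not tested.

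Adh7, the class IV alcohol dehydrogenase of stratified and upper digestive epithelium, stayed near the lower end of the counts until 2 weeks. It had 4 to 46 counts per library in irradiated mice and 14 to 37 in shams at the times before 8 weeks, with no call. At 8 weeks it had 6.06, 31.6 and 15.6 CPM in irradiated mice and 1.80, 2.37 and 1.83 CPM in shams, so that the lowest irradiated library was above the highest sham (log2 fold change 3.13, SE 0.56, adjusted p = 0.00411, and 2.43 without irradiated replicate 2, adjusted p = 0.00496). The effect at 8 weeks was larger than that at 2 weeks, where the log2 fold change was -1.20 (difference 4.35, SE 0.85, adjusted p = 0.0356). Only 1.28% of all genes passed that comparison, and the call held only without irradiated replicate 2 or 3 of 2 weeks or irradiated replicate 1 of 8 weeks, not without any 1 of the other 9 libraries.

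Rdh10, the membrane-bound retinol dehydrogenase, rose by less than one log2 unit at 4 h and 3 days and by 1.10 at 2 weeks. At 4 h it had 102, 99.4 and 76.2 CPM in irradiated mice and 44.6, 69.0 and 57.8 CPM in shams (log2 fold change 0.70, SE 0.17, adjusted p = 0.0335). The call at 4 h was lost without irradiated replicate 1 or 2 or sham replicate 1 or 3 (adjusted p up to 0.116), and in all 3 limma settings on FPKM (adjusted p up to 0.172). At 1 day the irradiated mice had 48.3, 53.7 and 54.1 CPM, lower than at 4 h in all 3 mice (irradiated 1 day over 4 h -0.82, SE 0.12, adjusted p = 0.00737).

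At 3 days Rdh10 had 62.9, 73.7 and 71.2 CPM in irradiated mice and 41.6, 38.5 and 51.2 CPM in shams (0.65, SE 0.14, adjusted p = 0.0146, up to 0.0618 without irradiated replicate 2 or 3). At 2 weeks it had 98.9, 71.5 and 67.0 CPM against 30.9, 36.2 and 43.8 CPM in shams (1.10, SE 0.21, adjusted p = 0.0138, up to 0.0616 without sham replicate 1 or 2). At 8 weeks irradiated replicates 1 and 2 had 83.1 and 115 CPM and replicate 3 had 50.8 CPM, inside the sham range of 46.7 to 55.5 CPM, and the change did not pass the test (0.65, SE 0.26, adjusted p = 0.0863).

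Dhrs9, a short-chain dehydrogenase that can oxidise retinol and also acts on steroids, had the largest change of the 8 members with counts in all sham libraries. At 4 h it had 1.69, 1.23 and 2.29 CPM in irradiated mice and 2.15, 6.95 and 4.37 CPM in shams (log2 fold change -1.36, SE 0.44, adjusted p = 0.0814). At 1 day all irradiated libraries, with 6.00, 8.70 and 7.20 CPM, were above those of 4 h (irradiated 1 day over 4 h 2.08, SE 0.28, adjusted p = 0.00544). Against the 4 h shams the value at 1 day was 0.71 (SE 0.38, adjusted p = 0.379).

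At 3 days Dhrs9 had 19.4, 18.7 and 21.8 CPM in irradiated mice and 1.28, 2.43 and 2.28 CPM in shams (3.30, SE 0.25, adjusted p = 0.000171), and this effect exceeded that at 4 h by 4.70 (SE 0.54, adjusted p = 0.000425). At 2 weeks it had 103, 58.3 and 185 CPM against 2.47, 3.27 and 3.77 CPM in shams (5.19, SE 0.49, adjusted p = 0.00301). The rise between the effects at 3 days and 2 weeks was 1.88 (SE 0.53, adjusted p = 0.0346, background 17.1% of genes), and it held only without sham replicate 1 of 3 days or any 1 irradiated library of 2 weeks, not without any 1 of the other 8 libraries. It was also lost in limma on log2(FPKM + 0.1) (adjusted p = 0.0559). At 8 weeks the irradiated mice had 60.7, 95.8 and 54.6 CPM and the shams 3.35, 4.13 and 2.19 CPM (4.43, SE 0.31, adjusted p = 8.16e-05). Irradiated and sham libraries did not overlap at any of these 3 times.

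Among the retinal dehydrogenases, Aldh1a1 was the main one by FPKM in shams, making up 72.1% to 92.7% of the summed FPKM of the 3 genes in each sham library. At 4 h it had 114, 97.1 and 97.7 CPM in irradiated mice and 57.5, 74.4 and 53.8 CPM in shams (log2 fold change 0.74, SE 0.14, adjusted p = 0.0125, and 0.0995 in a single fit of all groups). At 1 day it had 68.6, 93.4 and 92.5 CPM (0.47, SE 0.16, adjusted p = 0.17) and at 3 days 62.7, 70.8 and 72.8 CPM against 42.3, 47.7 and 74.1 CPM in shams (0.31, SE 0.21, adjusted p = 0.320). At 2 weeks the irradiated values, 38.2, 24.4 and 11.3 CPM, spanned the sham values of 27.3, 39.5 and 23.4 CPM (-0.28, SE 0.43, adjusted p = 0.653). At 8 weeks all 3 irradiated libraries, with 29.2, 21.6 and 22.4 CPM, were below the shams with 39.9, 39.4 and 45.7 CPM (-0.78, SE 0.14, adjusted p = 0.00454).

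Aldh1a1 also differed among shams. The shams at 2 weeks were lower than those at 4 h (log2 fold change -1.03, SE 0.20, adjusted p = 0.0258), the only member call among the 3 comparisons of later shams with those of 4 h. Of all genes 0.00% were called between the shams of 3 days and 4 h, 6.61% between those of 2 weeks and 4 h, and 2.82% between those of 8 weeks and 4 h. The call was lost without sham replicate 2 of 4 h or replicate 1 or 3 of 2 weeks (adjusted p up to 0.108). By edgeR's quasi-likelihood test 0 members were called between the shams of 3 days and 4 h, where 2299 of 14464 genes had an unadjusted p under 0.05, and between those of 8 weeks and 4 h, where 3472 of 14470 had. DESeq2 called 1 member in each, and 504 and 1308 of all genes. The copy Aldh1a7 rose at 4 h (0.61, SE 0.15, adjusted p = 0.0375) and fell at 1 day (-1.05, SE 0.15, adjusted p = 0.00949) and 3 days (-0.85, SE 0.17, adjusted p = 0.0116).

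Aldh1a2, the retinal dehydrogenase of mesenchyme, mesothelium and gut dendritic cells, was near 1 CPM in shams, between 0.346 and 1.63 CPM in all 12 libraries. In irradiated mice it had 0.256 to 1.21 CPM at 4 h and 1 day and 1.31, 1.99 and 2.84 CPM at 3 days, with no call (at 3 days 1.04, SE 0.55, adjusted p = 0.218). At 2 weeks it had 26.5, 11.1 and 13.3 CPM in irradiated mice and 1.11, 1.36 and 1.00 CPM in shams (log2 fold change 3.87, SE 0.41, adjusted p = 0.00317). The effect at 2 weeks exceeded that at 3 days by 2.83 (SE 0.71, adjusted p = 0.0220, up to 0.0613 without sham replicate 2 or irradiated replicate 1 or 2 of 3 days or sham replicate 1 or 3 of 2 weeks). With the replicate number as a block this call was lost (2.68, adjusted p = 0.0527). At 8 weeks it had 8.53, 9.94 and 7.36 CPM against 0.951, 0.907 and 0.967 CPM in shams (3.17, SE 0.23, adjusted p = 9.69e-05), a narrow range in both groups.

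Marker sums of several cell types were higher at the same times, when 16.5% (2 weeks) and 21.5% (8 weeks) of all genes rose. Mesothelium markers summed to 31.4 to 87.7 FPKM in irradiated mice and 1.92 to 2.97 FPKM in shams at 2 weeks. Of these markers, led by Msln, 6 of 6 were higher. Only 3 of the 6 passed the low-count filter between shams of 2 weeks and 4 h, and the others were tested only because of their irradiated counts. Fibroblast markers, led by Dcn and Col3a1, summed to 1042 to 2241 FPKM against 257 to 444 FPKM in shams, with 6 of 9 higher. Macrophage and dendritic cell markers, a list that pools these cell types and is led by Lyz2 and Cd14, summed to 525 to 2406 FPKM. In shams their sum was 74.7 to 110.1 FPKM, and 7 of the 8 tested of 10 were higher. Enteric neuron and glia markers summed to 49.6 to 99.3 FPKM against 24.9 to 33.3 FPKM in shams, with 4 of 7 higher. At 8 weeks 5 of 6 mesothelium, 7 of 9 fibroblast and 8 of 9 tested macrophage and dendritic cell markers were higher. Of the enteric neuron and glia markers 3 of 7 were higher then. Within the irradiated group of 2 weeks, replicate 1 had the highest Aldh1a2, mesothelium, fibroblast, and enteric neuron and glia values. Replicate 3 had the highest macrophage and dendritic cell value. The part of these cell types in the rise of Aldh1a2 was not tested.

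Aldh1a3, the third retinal dehydrogenase, was 5.20 to 16.4 CPM in all 12 sham libraries and rose at 4 of the 5 times. At 4 h it had 27.3, 42.1 and 27.1 CPM in irradiated mice and 12.1, 16.4 and 9.75 CPM in shams (log2 fold change 1.34, SE 0.23, adjusted p = 0.00951). At 1 day it had 9.53, 6.88 and 11.1 CPM, lower than at 4 h in every library (irradiated 1 day over 4 h -1.80, SE 0.23, adjusted p = 0.00470) and not past the test against the 4 h shams (-0.47, SE 0.24, adjusted p = 0.366). At 3 days it had 16.5, 18.1 and 36.4 CPM in irradiated mice and 6.00, 5.20 and 8.21 CPM in shams (1.86, SE 0.34, adjusted p = 0.00811). At 2 weeks it had 88.3, 49.6 and 61.7 CPM against 9.77, 9.55 and 11.9 CPM in shams (2.68, SE 0.25, adjusted p = 0.00301).

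At 8 weeks Aldh1a3 had 119.9, 304 and 67.2 CPM in irradiated mice and 12.8, 11.5 and 10.1 CPM in shams (3.82, SE 0.53, adjusted p = 0.00136), and 3.03 without irradiated replicate 2 (adjusted p = 0.000326). At each of the 4 times with a call the irradiated mice lay above the shams with no overlap. None of the tested differences between successive effects passed for this gene, with 0.55 for 3 days minus 4 h (adjusted p = 0.412), 0.82 for 2 weeks minus 3 days (adjusted p = 0.224) and 1.16 for 8 weeks minus 2 weeks (adjusted p = 0.373). Squamous epithelium markers were also higher at 3 days, with a sum of 46.1 to 66.0 FPKM in irradiated mice and 5.41 to 9.08 FPKM in shams. Of the 15 listed 6 were tested and 5 of these were higher, against 10.4% of all genes. Only 4 of the 15 passed the low-count filter between shams of 3 days and 4 h. At 2 weeks, when Aldh1a3 was higher too, their sum overlapped that of shams (15.3 to 22.7 against 8.88 to 28.1 FPKM). The part of these markers' cells in the rise of Aldh1a3 was not tested.

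**Figure D3:**
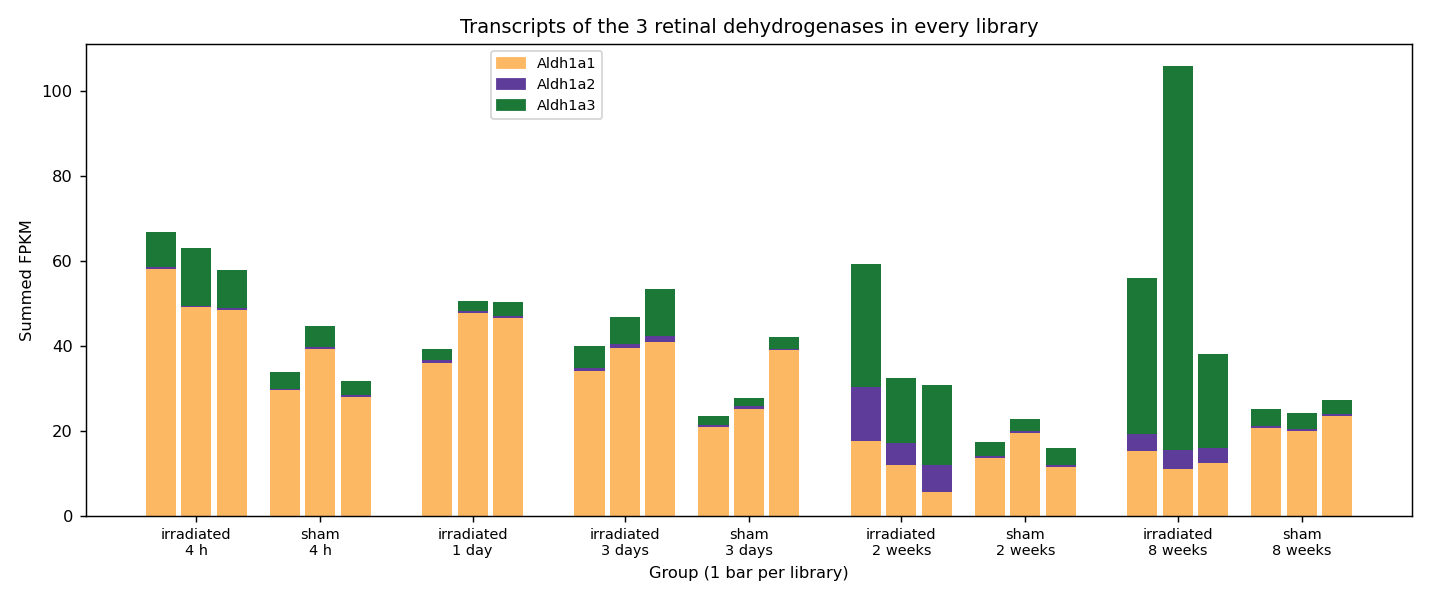
Summed FPKM of Aldh1a1, Aldh1a2 and Aldh1a3, stacked, with 1 bar per library and the irradiated group left of its shams at each time. Aldh1a1 made up most of each bar except in irradiated mice at 2 and 8 weeks, where Aldh1a3 did in the mean of the group.

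Since FPKM allows for transcript length, the shares of the 3 retinal dehydrogenases could be set side by side. Aldh1a1 made up 28.2% ± 9.72 of their summed FPKM in irradiated mice and 78.7% ± 6.68 in shams at 2 weeks, and 23.4% ± 11.6 in irradiated mice and 83.4% ± 2.56 in shams at 8 weeks (SD, n = 3 each). Aldh1a3 made up 52.5% ± 7.87 in irradiated mice and 18.3% ± 6.56 in shams at 2 weeks, and 69.6% ± 14.2 and 14.9% ± 2.49 at 8 weeks. Aldh1a2 had its largest share at 2 weeks, 19.3% ± 3.01 in irradiated mice and 2.94% ± 0.139 in shams. The summed FPKM itself was 40.9 ± 16.1 in irradiated mice and 18.6 ± 3.60 in shams at 2 weeks, and 66.6 ± 35.2 and 25.6 ± 1.48 at 8 weeks. At 4 h, when the sum was 62.7 ± 4.51 in irradiated mice and 36.7 ± 6.89 in shams, Aldh1a1 was 82.8% ± 4.62 and 88.0% ± 0.234 of it. No test was run on these sums and shares.

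Stra6, the receptor that takes up retinol from its serum binding protein, had shams that ranged from 1.54 to 17.8 CPM at 3 days. At 4 h it had 0.922, 1.33 and 3.61 CPM in irradiated mice and 6.13, 2.53 and 7.26 CPM in shams (log2 fold change -1.43, SE 0.55, adjusted p = 0.127). At 1 day it had 2.12, 2.02 and 1.94 CPM, below each of the 4 h shams but without passing the test (-1.38, SE 0.38, adjusted p = 0.0984). At 3 days it had 4.08, 5.18 and 3.09 CPM against 1.54, 4.61 and 17.8 CPM in shams (-0.98, SE 0.73, adjusted p = 0.377), and the sign turned without sham replicate 3 (0.40).

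At 2 weeks all irradiated values of Stra6, 10.7, 3.94 and 6.81 CPM, were above the shams with 1.81, 2.97 and 3.51 CPM, but the adjusted p was 0.0584 (1.37, SE 0.43). At 8 weeks it had 22.8, 88.7 and 19.2 CPM in irradiated mice and 4.51, 4.13 and 3.36 CPM in shams (3.43, SE 0.61, adjusted p = 0.00392). Irradiated replicate 2 held most of the counts, and without it the log2 fold change was 2.39 (adjusted p = 0.000288). The effects of Stra6 at 8 and 2 weeks did not differ past the threshold (2.07, SE 0.80, adjusted p = 0.228). Nor did those at 2 weeks and 3 days (2.33, SE 0.98, adjusted p = 0.122).

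Crabp2, the carrier that hands retinoic acid to its nuclear receptor, was at or near 0 in shams and was counted in every irradiated library at 2 and 8 weeks. The 12 sham libraries held 4 counts in all, 1 at 3 days and 3 at 2 weeks. At 4 h the irradiated mice had 6, 0 and 11 counts and at 1 day 58, 3 and 0 counts, against 0 in the 4 h shams. Taking 3 counts over the sham group as the floor, this was at least 5.73-fold higher at 4 h and at least 20.4-fold higher at 1 day, with nearly all counts of 1 day in 1 library. In that library, irradiated replicate 1, squamous epithelium markers summed to 362 FPKM, against 21.8 and 26.0 FPKM in the other irradiated mice of 1 day. At 3 days the irradiated mice had 1, 2 and 2 counts and the shams 1, 0 and 0 (ratio 4.99, 95% counting interval 0.558 to 236).

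At 2 weeks Crabp2 had 79, 56 and 56 counts in irradiated mice and 0, 0 and 3 counts in shams, a ratio of 62.0 with a 95% counting interval of 20.9 to 303 (edgeR adjusted p = 0.00668). At 8 weeks it had 810, 438 and 803 counts, or 39.3, 21.8 and 39.1 CPM, in irradiated mice and 0 counts in all 3 shams, at least 664-fold higher (edgeR adjusted p = 0.000147). The floor and the interval cover counting error only. By edgeR the effects of Crabp2 at 8 and 2 weeks did not differ past the threshold (6.60, SE 1.92, adjusted p = 0.144). Nor did those at 2 weeks and 3 days (3.84, SE 2.32, adjusted p = 0.275). Mean FPKM was 41.6 in irradiated mice at 8 weeks, next to Aldh1a3 (49.7) and Rdh10 (36.9), and the ranges of these neighbours in the order overlapped.

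Squamous epithelium markers, which mark the anal and transitional lining, moved with Crabp2 at 8 weeks but not at 2 weeks. Their sum over 15 genes was 4114 to 4716 FPKM in irradiated mice and 8.06 to 9.16 FPKM in shams at 8 weeks, with 15 of 15 higher (21.5% of all genes). The most abundant were Krtdap and Krt14. In shams at 8 weeks Ivl and Sprr3 were at 0 counts. Only 4 of the 15 markers passed the low-count filter between shams of 8 weeks and 4 h. The others were tested at 8 weeks only because of their irradiated counts, so the share of all genes is not a like background for them. At 2 weeks the sum was 15.3 to 22.7 FPKM in irradiated mice and 8.88 to 28.1 FPKM in shams, overlapping, while Crabp2 was already higher there. At 8 weeks the part of these cells in the rises of Crabp2, Adh7, Aldh1a3 and Stra6 was not tested. Irradiated replicate 2 of 8 weeks had the highest Adh7, Aldh1a2, Aldh1a3, Stra6, Dhrs9 and Rdh10 and the lowest Crabp2, with a marker sum of 4286 FPKM, between those of the other mice.

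**Figure D4:**
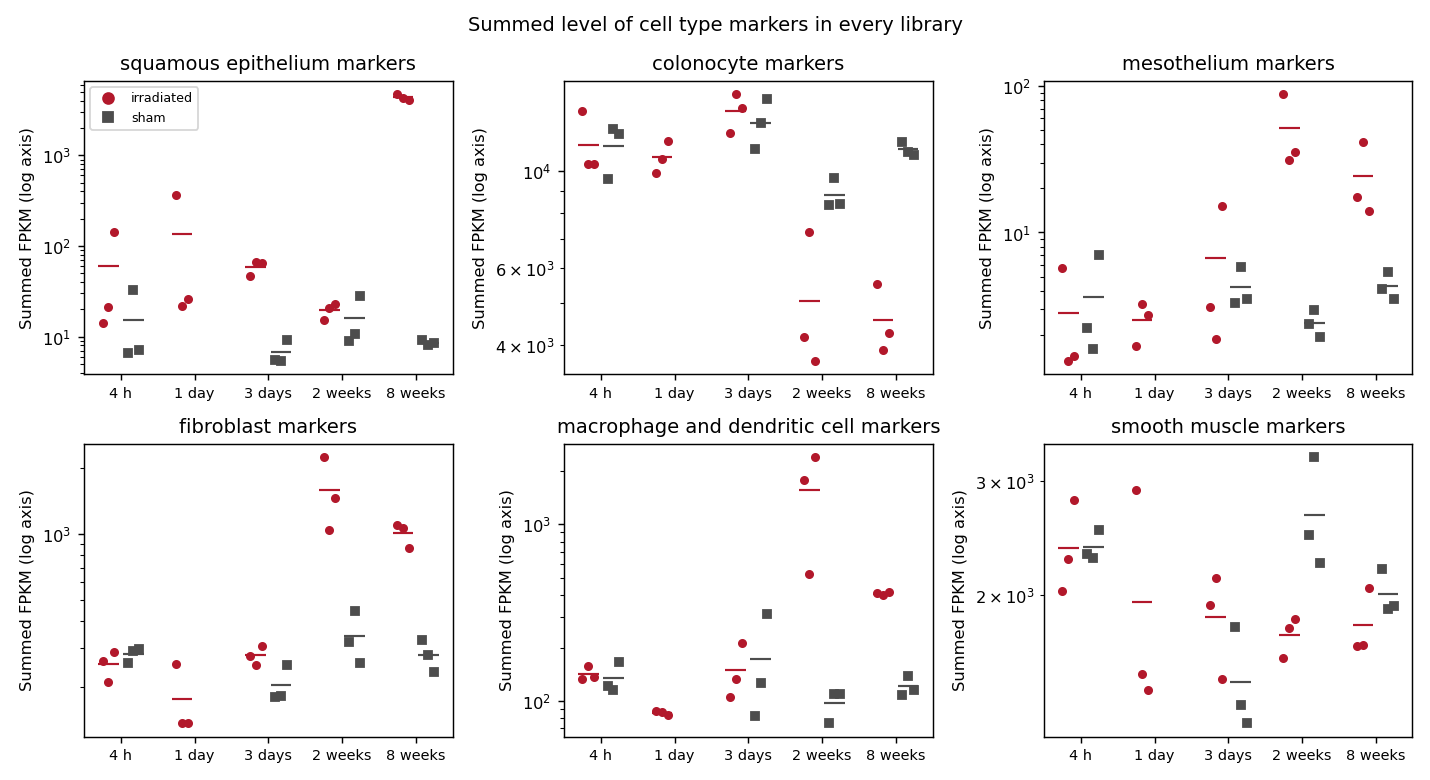
Summed FPKM (log axis) of 6 lists of cell type markers in each library, with irradiated mice as red circles left of sham-irradiated mice as grey squares and horizontal lines for group means. Squamous markers lay between 4114 and 4716 FPKM in irradiated mice at 8 weeks, and mesothelium markers between 31.4 and 87.7 FPKM at 2 weeks, both above all shams.

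The order of the 9 genes by mean FPKM at 8 weeks differed between the groups. In irradiated mice it was Adh1, Aldh1a3, Crabp2, Rdh10, Stra6, Dhrs9, Aldh1a1, Adh7 and Aldh1a2, where neighbours were separate only between Adh1 and Aldh1a3 and between Aldh1a1 and Adh7. In shams it was Adh1, Rdh10, Aldh1a1, Aldh1a3, Stra6, Adh7, Dhrs9, Aldh1a2 and Crabp2, where only Rdh10 and Aldh1a1, and Adh7 and Dhrs9, overlapped. Aldh1a1 thus stood at rank 7 in irradiated mice and rank 3 in shams.

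Across the 27 libraries the members formed no single pattern. The highest Pearson correlation of log2 CPM between members was that of Aldh1a2 and Dhrs9 (r = 0.90), followed by Aldh1a3 and Crabp2 (0.80) and Aldh1a2 and Crabp2 (0.80), and the lowest was that of Adh1 and Dhrs9 (-0.78). For the neighbouring genes Adh1 and Adh7 r was 0.013. These correlations run over irradiated and sham groups together, share libraries and times, and are given as a description. Among 15930 genes the pattern most like that of Aldh1a2 was Ccl11 (0.96), an eosinophil chemokine, then Fgf10 (0.96), a growth factor made by mesenchyme, and Cthrc1 (0.95). Nearest to Crabp2 were Dsg3 (0.96), a desmosome cadherin of squamous epithelium, and Defb1 (0.96). Nearest to Adh1 were Acer1 (0.94), Gm5485 (0.94) and Acadm (0.94), and nearest to Dhrs9 were Cpne2 (0.95), Samd5 (0.95) and Ddah1 (0.94). For Stra6 they were Clu (0.93), Srd5a1 (0.91) and Gga2 (0.90), for Aldh1a1 Cpped1 (0.91), Vps36 (0.90) and Arpin (0.89), for Rdh10 Scarb2 (0.84), Itga2 (0.80) and Icam1 (0.79), and for Adh7 Cat (0.85), Aldh3a1 (0.84) and Fam84a (0.84). The gene closest to Aldh1a3 was an unnamed one (0.90), followed by Krt90 (0.90) and Fjx1 (0.89).

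Beyond the members, 41 genes of wider retinoid lists were in the table, and 33 to 35 of them were tested. In the early samples 4 rose and 5 fell at 4 h, and 0 rose and 5 fell after 1 day. After 3 days 3 rose and 10 fell, in week 2 11 rose and 3 fell, and in week 8 11 rose and 9 fell. The median log2 fold change of these wider genes lay between -0.40 (3 days) and -0.086 (8 weeks). Of all tested genes 5.78% rose and 5.72% fell at 4 h, and 1.97% and 2.03% at 1 day. At 3 days these shares were 10.4% and 10.1%, at 2 weeks 16.5% and 9.30%, and at 8 weeks 21.5% and 16.5%.

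Downstream of retinoic acid synthesis, Fabp5, a carrier that can bring retinoic acid to PPAR receptors, and Cyp26b1, a retinoic acid hydroxylase, both rose late. Fabp5 had 22.4, 13.3 and 45.6 CPM in irradiated mice and 4.73, 2.92 and 5.32 CPM in shams at 2 weeks (log2 fold change 2.65, SE 0.49, adjusted p = 0.0133). At 8 weeks Fabp5 had 517, 109 and 662 CPM against 4.01, 6.60 and 6.11 CPM (6.26, SE 0.71, adjusted p = 0.000541), with irradiated replicate 2 lowest as for Crabp2. Cyp26b1 had 1.91, 2.64 and 2.24 CPM in irradiated mice and 0.462, 0.545 and 0.990 CPM in shams at 3 days (1.74, SE 0.40, adjusted p = 0.0192). It also rose at 2 weeks (2.01, SE 0.48, adjusted p = 0.0267) and 8 weeks (1.24, SE 0.38, adjusted p = 0.0348), and its highest library had 5.85 CPM. The related Cyp26a1 had 20 counts in irradiated mice and 2 in shams at 2 weeks (ratio 9.73, 95% counting interval 2.36 to 85.9).

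Of the nuclear receptors, Rarg, the main retinoic acid receptor of skin, rose at 4 of the 5 times. Its log2 fold change was 1.15 at 4 h (SE 0.26, adjusted p = 0.0259), 1.03 at 3 days (SE 0.20, adjusted p = 0.0112), 0.86 at 2 weeks (SE 0.20, adjusted p = 0.0248) and 1.84 at 8 weeks (SE 0.17, adjusted p = 0.000262). At 8 weeks Rarg had 33.5, 46.0 and 30.2 CPM in irradiated mice and 10.7, 10.5 and 9.16 CPM in shams. Rara and Rxra fell slightly at 8 weeks (-0.31, SE 0.10, adjusted p = 0.0468, and -0.36, SE 0.10, adjusted p = 0.0249).

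On the side of supply, Isx, an intestinal homeobox factor that represses carotenoid uptake and cleavage and responds to retinoic acid, was at most 1.18 CPM in shams. It had 39.7, 39.8 and 26.2 CPM in irradiated mice and 0.201, 0.452 and 0.854 CPM in shams at 2 weeks (log2 fold change 6.12, SE 0.47, adjusted p = 0.00298). At 8 weeks it had 21.7, 38.3 and 32.1 CPM against 0, 0.705 and 0.407 CPM (6.34, SE 0.61, adjusted p = 0.000274). Isx did not pass the test at the 3 earlier times. Rbp4, the serum carrier of retinol that Stra6 binds, rose at 2 weeks (1.40, SE 0.31, adjusted p = 0.0216) and 8 weeks (2.07, SE 0.20, adjusted p = 0.000303), and Rbp2, the retinol carrier of absorptive cells, fell at 3 days (-1.29, SE 0.14, adjusted p = 0.00110) and 8 weeks (-0.74, SE 0.23, adjusted p = 0.0377).

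Of the other dehydrogenases, Rdh12, a retinal reductase best known from the retina, had 13.7, 8.70 and 18.0 CPM in irradiated mice and 0.501, 0.655 and 0.560 CPM in shams at 8 weeks (log2 fold change 4.54, SE 0.35, adjusted p = 0.000122). At 2 weeks it spread from 3.60 to 94.3 CPM in irradiated mice, against 0.353 to 0.855 CPM in shams (6.07, SE 1.35, adjusted p = 0.0217). Rdh1, a retinol dehydrogenase of the mouse, had 71.4, 101 and 128 CPM in irradiated mice and 302, 442 and 404 CPM in shams at 8 weeks (-1.94, SE 0.24, adjusted p = 0.000729). Dhrs3, which turns retinal back into retinol, rose at 2 weeks (0.80, SE 0.17, adjusted p = 0.0197). Tgm2, a transglutaminase induced by retinoic acid in many cells, rose at 4 of the 5 times, by 0.34 to 2.20. Of 10 listed retinoic acid response genes 9 were in the table and 7 were tested at 2 and at 8 weeks. Of these 5 rose and 0 fell each time, at medians of 1.62 and 1.00. Of all tested genes 16.5% rose at 2 weeks and 21.5% at 8 weeks, at medians of -0.0015 and 0.010. The list includes Isx, Cyp26b1, Dhrs3 and Tgm2, already named here, and was chosen with earlier results of these data known. Whether retinoic acid signalling changed was not tested.

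**Figure D5:**
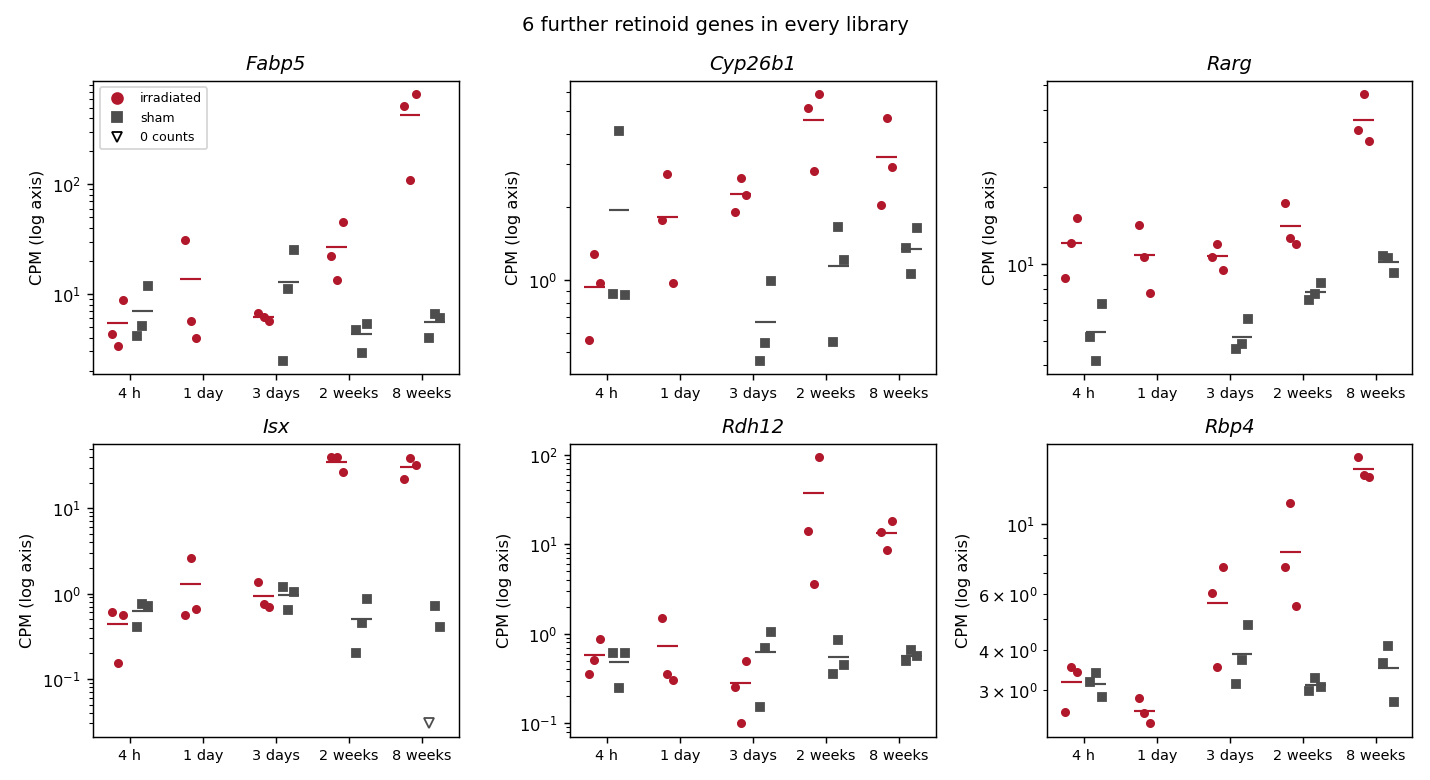
CPM (log axis) of Fabp5, Cyp26b1, Rarg, Isx, Rdh12 and Rbp4 in each library, with irradiated mice as red circles left of sham-irradiated mice as grey squares, horizontal lines for group means where no library was at 0, and an open triangle for a library with 0 counts. All 6 genes lay above the shams at 2 and 8 weeks with no overlap.

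At 1 day edgeR's quasi-likelihood test called 0 of the 8 members tested, while 2550 of 14390 genes had an unadjusted p under 0.05 and 576 were called. Of the members, Adh1, Adh7 and Stra6 lay below all 4 h shams and none lay above them. DESeq2, which called 1157 of all genes there, called Adh1 and Stra6, both lower. In the direct comparison of irradiated mice at 1 day and 4 h, Dhrs9 was higher and Adh1 (-0.61, SE 0.13, adjusted p = 0.0236), Aldh1a3 and Rdh10 were lower, 4 of 8 members, where 11.4% of all genes were called (6.02% higher, 5.38% lower), and the Adh1 call was lost without replicate 1 or 2 of 4 h or replicate 2 or 3 of 1 day.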

How the data were processed

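Poly(A) RNA of mouse rectum was sequenced in 27 libraries, 3 mice for each of 9 groups, which were taken from the labels. Per the submitters' processing notes and methods, the authors filtered reads with fastp (0.18.0), aligned them to mm9 with HISAT2, assembled transcripts with StringTie (1.3.1) and quantified with RSEM. The deposited counts are whole, unnormalised read counts per gene. The deposited FPKM values, which allow for transcript length and library size, were made by the authors with RSEM. They are not a plain scaling of the deposited counts. At 4 h, for example, Stra6 had 120 counts and 1.82 FPKM in sham replicate 1, and 18 counts and 0.442 FPKM in irradiated replicate 1. The counting program, strand setting and annotation were not given in the sources used. Library totals were 17966356 to 23281174 counts (median 19777800).

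The main test was edgeR's quasi-likelihood test (edgeR 4.0.16, limma 3.58.1, R 4.3.3) on the counts of the groups compared, with TMM factors, filterByExpr and Benjamini-Hochberg adjustment over all genes tested. Differences between radiation effects were contrasts of 4 groups. Counting floors (3 counts over a group) and 95% intervals cover counting error only. Alternatives were DESeq2 (1.42.0), its size factors, total counts only, no filter, a single fit of all groups, limma on log2(FPKM + 1) and log2(FPKM + 0.1), a replicate block, and leaving out each library. The test was checked on simulated data. Coordinates are from GENCODE on mm9, and promoters from RefSeq on GRCm38.p6.

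Deviations of same-numbered irradiated and sham mice correlated at 0.281, 0.284 and 0.402 at 3 days. The labels do not say that the numbers pair the mice. The main test left the samples unpaired at every time, and a block by replicate number was run as an alternative. The members and lists were chosen with earlier results of these data known. Wider retinoid genes were named where they were carriers, breakdown enzymes or receptors, or among the 6 smallest p in a direction at any time. For likeness the 3 genes with the highest Pearson r were named, except 1 that is not reported here. Mice were separate animals, with 1 library each.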

Additional observations from a re-analysis of the deposited data

Results flagged for a closer look

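Radiation effects of 4 members differed between time points by a test of the difference itself (edgeR's quasi-likelihood test with Benjamini-Hochberg adjustment). For 3 days minus 4 h 2 of 8 members were called, against 17.5% of all genes. For 2 weeks minus 3 days they were 2 of 9, against 17.1%, and for 8 weeks minus 2 weeks 1 of 9, against 1.28%. The log2 fold change of Adh1 was lower at 3 days than at 4 h by a difference of -1.99 (adjusted p = 0.000479), with all 3 irradiated mice below all shams at 3 days and overlap at 4 h. That of Dhrs9 was higher at 3 days than at 4 h (difference 4.70, adjusted p = 0.000425) and higher again at 2 weeks than at 3 days (1.88, adjusted p = 0.0346). That of Aldh1a2 was higher at 2 weeks than at 3 days (2.83, adjusted p = 0.0220), and that of Adh7 was higher at 8 weeks than at 2 weeks (4.35, adjusted p = 0.0356). The first difference of Dhrs9 and that of Adh1 kept their calls without any 1 library, and the other 3 did not.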

How the results depend on the processing

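The count of members called moved under some settings. DESeq2 called 5 at 4 h, 2 at 1 day, 2 for 8 weeks minus 2 weeks, 1 between shams of 3 days and 4 h, 2 between shams of 2 weeks and 4 h, and 1 between shams of 8 weeks and 4 h. It also called more of all genes, 2311 at 4 h (1657 in the main test), 1157 at 1 day (576) and 928 for 8 weeks minus 2 weeks (199). Between shams it called 504 genes at 3 days (0), 1731 at 2 weeks (953) and 1308 at 8 weeks (408), each against 4 h. Limma on log2(FPKM + 1) without a filter called 1 at 4 h, 2 for irradiated 1 day over 4 h and 0 between shams of 2 weeks and 4 h. Over all genes that setting called 690 (1657 in the main test), 628 (1637) and 277 (953) there. Limma on log2(FPKM + 0.1) called 2 for 8 weeks minus 2 weeks (288 of all genes, 199 in the main test). A single fit of all groups called 1 at 1 day (536 of all genes, 576 in the main test). With the replicate block 4 members were called at 3 days, as without it, and it gave 1 for 2 weeks minus 3 days, 0 for 8 weeks minus 2 weeks and 2 between shams of 2 weeks and 4 h. Over all genes the block called 4153 (2968 in the main test), 2191 (2616), 79 (199) and 1072 (953) in these comparisons. Adh1 at 4 h, not called, turned to -0.018 with total counts only and -0.031 in the limma settings. Without 1 library the count ran from 2 to 4 at 4 h, 0 to 2 at 1 day, 3 to 5 at 3 days, 4 to 7 at 2 weeks, 8 to 9 at 8 weeks, 3 to 4 for irradiated 1 day over 4 h, 0 to 3 for 2 weeks minus 3 days, 0 to 1 for 8 weeks minus 2 weeks, 0 to 2 between shams of 2 weeks and 4 h and 0 to 1 between those of 8 weeks and 4 h. The number of all genes called, among 14542 to 15946 tested, moved too. It was 791 to 1335 at 4 h, 217 to 701 at 1 day and 1265 to 3244 at 3 days. Later it was 1007 to 6054 at 2 weeks and 3879 to 6159 at 8 weeks. For irradiated 1 day over 4 h it was 627 to 1370, for 2 weeks minus 3 days 1324 to 4060 and for 8 weeks minus 2 weeks 72 to 1222. Between shams it was 148 to 790 for 2 weeks and 24 to 487 for 8 weeks, each against 4 h. Uncalled member values that changed sign without 1 library were Adh1 (-0.13 to 0.17), Adh7 (-0.082 to 0.61) and Aldh1a2 (-0.39 to 0.30) at 4 h, Rdh10 at 1 day (-0.28 to 0.026), Stra6 at 3 days (-1.46 to 0.40) and Aldh1a1 at 2 weeks (-0.76 to 0.068). Calls lost by setting were, for the replicate block, Adh1 at 2 weeks (adjusted p = 0.0549), Aldh1a2 for 2 weeks minus 3 days (0.0527) and Adh7 for 8 weeks minus 2 weeks (0.0584), and for the fit of all groups, Aldh1a1 at 4 h (0.0995) and Adh1 for irradiated 1 day over 4 h (0.114). Limma on log2(FPKM + 1) lost Rdh10 at 4 h (0.102) and Adh7 for 8 weeks minus 2 weeks (0.0614), and without a filter also Aldh1a1 at 4 h (0.0616), Adh1 and Rdh10 for irradiated 1 day over 4 h (0.0904 and 0.0568) and Aldh1a1 between shams of 2 weeks and 4 h (0.0689). Limma on log2(FPKM + 0.1) lost Rdh10 at 4 h (0.101) and Dhrs9 for 2 weeks minus 3 days (0.0559). The cause was not tested. With 3 mice a group, low counts of Adh7, Aldh1a2 and Crabp2 before the late times limit what could be seen.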
